A study of Mus musculus with 6 samples.

Results

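Sterol and fatty acid synthesis genes were followed in central memory and effector cultures of CD8+ T cells, by all probe sets that the platform annotation assigns to any of 43 genes fixed by name: regulators of sterol sensing, enzymes of cholesterol synthesis, genes of sterol storage and export, and enzymes that make, desaturate, elongate, activate and esterify fatty acids. The rule used no measured value, but the members were chosen with earlier results of these data known. It found 89 probe sets of 36701, for 38 of the 43 genes, and all 89 carried a single gene symbol. Acat2, Soat1, Nr1h2, Acsl1 and Dgat2 matched no named probe set and have no value here. All cells came from spleen and lymph nodes of female P14 mice, a line on the C57Bl/6 background whose transgenic T cell receptor recognises a peptide of lymphocytic choriomeningitis virus. Both kinds of cells were stimulated with that peptide for 2 days and then kept in a cytokine for 7 days. Central memory (CM) cells were kept in IL-15 and sorted for a high level of a surface marker, and effector/effector memory (E/EM) cells were kept in IL-2 and sorted for a low level of it. Total RNA was hybridised to 3 array types with different probe sets, named SubA, SubB and SubC, with 1 array per kind of cell and array type. Cytokine and sorting gate differ together between the groups and cannot be told apart.

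Cholesterol and fatty acids are both built from cytosolic acetyl-CoA. When membrane sterol is low, the escort protein SCAP carries the SREBP transcription factors out of the endoplasmic reticulum to be cleaved, and INSIG proteins hold SCAP back when sterol is plentiful. SREBP2 acts mainly on genes of sterol synthesis and SREBP1 mainly on genes of fatty acid synthesis and desaturation, and activated T cells are known to draw on both while they grow and divide.

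The arrays gave no replicates, so no p-value was computed, and every difference below describes these 6 arrays. Ratios divide the CM by the E/EM signal and are given as log2, so values below 0 mark a lower CM signal. A ratio was taken only where both signals lay above the floor of the array type, a background level set by bacterial control probe sets (31.28 on SubA, 88.12 on SubB and 194.34 on SubC). A gene's value is the mean over its probe sets, with the standard deviation (SD) over them, which is technical, and values with no SD come from 1 probe set. In RNA from a sorted population, fewer cells that express a gene and less RNA per cell cannot be told apart. Probe sets above the floor made up from 64.3% to 69.1% of those on each SubA and SubB array, but 47.1% (CM) and 47.3% (E/EM) on SubC. Of 8 CD8+ T cell marker genes 7 were measured, with a median log2 ratio of -0.0058. Of 7 macrophage and monocyte markers 3 were measured, all 3 below 0, and Adgre1, Itgam, Lyz2 and Marco were above the floor on both arrays in no probe set. Their summed SubA signal was 320.9 in CM and 523.9 in E/EM cells. Of 7 dendritic cell markers 6 were measured, 4 of them below 0, with summed SubA signals of 836.3 and 1227.1. The summed SubA signal of the 7 B cell markers was 619 and 619.8, and that of the CD8+ T cell markers was 47635.3 and 46939.4. Of 7 adipocyte and hepatocyte markers 1 was measured (Retn, -0.29), Adipoq, Alb, Apoa1 and Serpina1a were above the floor on neither array, and Ttr was at least 2.23-fold lower in CM cells. Their summed SubA signal was 84.2 in CM and 139.8 in E/EM cells. The part of these myeloid, adipocyte and hepatocyte markers in the lower lipid gene signals of CM cells was not tested.

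Of the 89 member probe sets 67 lay above the floor on both arrays, 4 in CM cells alone, 3 in E/EM cells alone and 15 on neither array. A ratio was thus available for 37 genes. None of the 37 was at least 2-fold higher in CM cells, where 2.73% of all 10946 measured genes were, and 2 were at least 2-fold lower, where 5.61% of all measured genes were. At 1.5-fold the members held 0 higher and 5 lower genes, against 10.1% and 13.9% of all measured genes. The 5 were Scd1, Dgat1, Elovl6, Fads2 and Abca1. The median over the 37 genes was 0.062, against -0.0025 over all measured genes, with 20 members above 0 and 17 below.

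**Figure D1:**
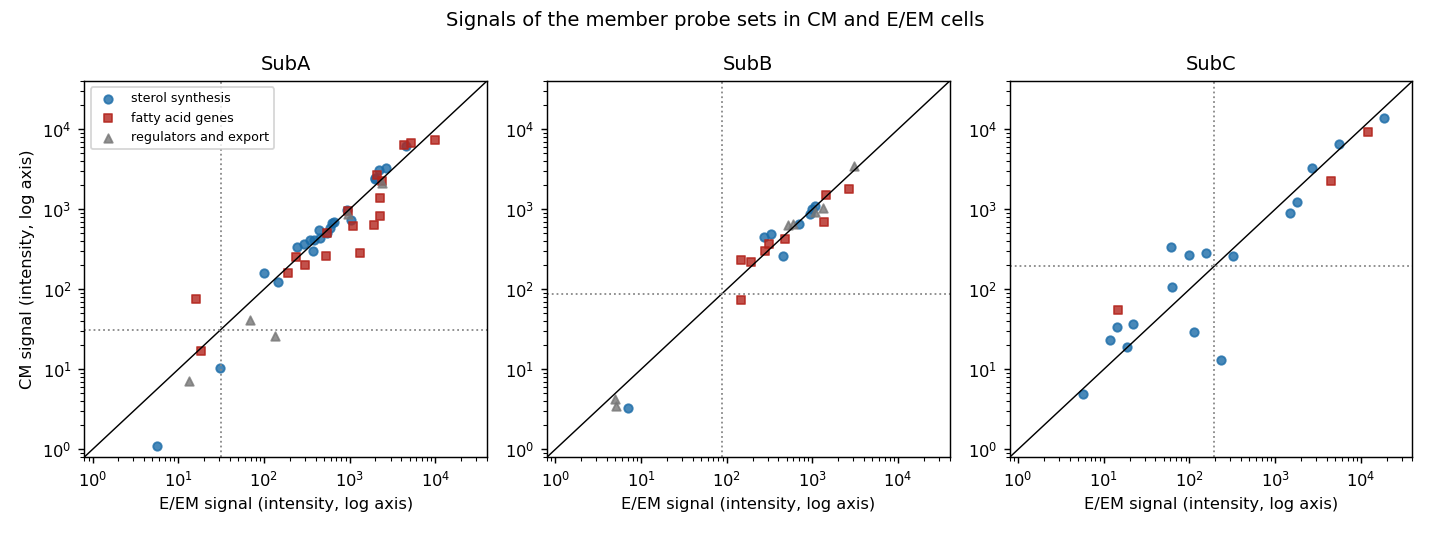
Signal of each member probe set in CM (vertical axis) against E/EM cells (horizontal axis), in intensity units on log axes, 1 panel per array type and 1 point per probe set. The solid line marks equal signals and the dotted lines the floor (31.28, 88.12 and 194.34); most sterol synthesis points lie close to the line, while several fatty acid points on SubA lie below it.

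The regulators differed little between the kinds of cells. Srebf1, which encodes SREBP1, had signals of 2107.8 in CM and 2392.6 in E/EM cells, a log2 ratio of -0.18. Scap had 3481.4 and 3030.9, a ratio of 0.20. Insig1, itself a target of SREBP and so a common readout of its activity, had 661.8 and 600.2, a ratio of 0.14. Another Insig1 probe set, with 7.2 and 13.4 on SubA, and another of Scap, with 3.5 and 5.1 on SubB, lay under the floor. The 2 probe sets of Insig2 both lay lower in CM cells, with 924.4 against 1066.3 and 1044.1 against 1330.5, and a gene value of -0.28 ± 0.10 (SD, 2 probe sets). The only probe set of Srebf2, which encodes SREBP2, had 4.2 and 5, far under the floor, so these arrays gave no level for it. No regulator passed 1.5-fold, and the median over the 4 measured genes was -0.021.

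Sterol synthesis genes lay close together in both kinds of cells. Of 17 genes 16 were measured, 10 above 0 and 6 below, with a median of 0.088 and a range from -0.30 to 0.57, and 0 passed 1.5-fold in either direction. A value above 0 was held by 49.7% of all measured genes.

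The first steps of the pathway build squalene, and the later ones close and trim the sterol rings. The promoters of 2 of these genes, Hmgcs1 and Mvk, are shown because both genes lay above 0 and carry different sets of letters known from SREBP targets. The windows are the 250 bases before the annotated start, from RefSeq on GRCm38.p6. Capitals mark the sterol regulatory element TCACNCCAC and the NF-Y motif ATTGG, each searched on both strands.
Hmgcs1 promoter, chr13:119690101-119690350, plus strand: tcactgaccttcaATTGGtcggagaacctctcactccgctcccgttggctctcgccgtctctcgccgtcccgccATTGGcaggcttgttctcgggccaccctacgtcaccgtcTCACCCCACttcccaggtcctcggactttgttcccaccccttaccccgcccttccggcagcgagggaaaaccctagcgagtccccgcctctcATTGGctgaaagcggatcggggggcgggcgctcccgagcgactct
Mvk promoter, chr5:114444019-114444268, plus strand: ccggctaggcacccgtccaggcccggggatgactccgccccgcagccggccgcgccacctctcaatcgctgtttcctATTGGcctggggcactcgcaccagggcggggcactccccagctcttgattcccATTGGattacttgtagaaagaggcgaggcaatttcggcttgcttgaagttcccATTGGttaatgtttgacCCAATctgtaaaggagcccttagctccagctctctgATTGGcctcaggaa
The Hmgcs1 window held 1 sterol regulatory element, from 137 to 129 bases before the start, and 3 ATTGG matches. The Mvk window held no match to that element and 5 ATTGG matches. Windows were given for 14 of the 17 sterol synthesis genes (17 windows, since some genes have several starts). ATTGG was found in 13 of the 17 windows (76.5%), against 34.8% of 11270 windows of genes measured here and 33.8% of all 32851 windows. The Sp1 motif GGGCGG, whose first letters can overlap the end of ATTGG, was found in 14 of 17 (82.4%), against 56.4% and 32.7%. TCACNCCAC was found in 1 of 17, against 1.1% and 1.05%. These matches describe letters and are not binding sites.

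Hmgcs1, the synthase that makes HMG-CoA, had signals of 2400 in CM and 1972.5 in E/EM cells, a log2 ratio of 0.28. Mvk, mevalonate kinase, had 159.6 against 100.4 and 336.2 against 241.7 on SubA, a gene value of 0.57 ± 0.14 (SD, 2 probe sets), while a SubC probe set went the other way, with 13.1 against 236.2, at least 1.22-fold lower in CM cells. Both SubA probe sets have marked names, which carry the letter f, g, i, r or s before the ending _at. Mvk had no value when probe sets with marked names were left out. Its weakest SubA signal was 3.21 times the floor. Pmvk, the next kinase, had 1101.6 against 1085.6 on SubB and 3301.3 against 2676.3 on SubC. Its value was 0.16 ± 0.20 (SD, 2 probe sets), or 0.021 when probe sets with marked names were left out. A further SubC probe set was above the floor in CM cells alone, at least 1.75-fold higher. Another Pmvk probe set, on SubB, had 3.3 and 7.1, under the floor.

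Mvd, the decarboxylase that makes isopentenyl diphosphate, had 585.5 and 583.9 on SubA but 13676.2 and 18545.5 on SubC, so its value of -0.22 ± 0.31 (SD, 2 probe sets) rests on the SubC probe set. Idi1, the isomerase of that product, gave close values on both of its array types, with 3130.6 against 2188.2 on SubA and 490.1 against 324.8 on SubB, and 0.56 ± 0.054 (SD, 2 probe sets), both higher in CM cells. Fdps, which makes farnesyl diphosphate, had 3323.3 against 2626.5 and 6088 against 4590.6, a value of 0.37 ± 0.048 (SD, 2 probe sets), and its other 4 probe sets lay under the floor on both arrays. Fdft1, squalene synthase, had 985.5 and 931, a ratio of 0.082. Sqle, squalene epoxidase, had 2441 against 1987.3, a ratio of 0.30.

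Genes of the later steps showed no common direction. Lss, which closes the rings to lanosterol, had 733.4 against 1043.7 on SubA and 883.6 against 935.9 on SubB, a value of -0.30 ± 0.30 (SD, 2 probe sets), and a SubC probe set at least 1.45-fold higher in CM cells. Cyp51, the lanosterol demethylase, had 442.1 and 456.6, 1003.2 and 987.5, and 260.5 and 318.6 on SubA, SubB and SubC, a value of -0.10 ± 0.16 (SD, 3 probe sets). Its probe sets thus straddled 0. Msmo1, a methyl sterol oxidase, had 684.2 and 659.3 on SubA, a ratio of 0.053, with a SubC probe set at least 1.38-fold higher. With the floor halved, Msmo1 had 0.75, past 1.5-fold.

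Nsdhl, a sterol dehydrogenase, had 4 probe sets between 0.11 and 0.25 on SubA and SubC and 1 on SubB at -0.80, with 262.8 against 459.1, so its mean of -0.020 ± 0.44 (SD, 5 probe sets) describes none of them. Hsd17b7, the ketoreductase that works with it, lay below 0 on all 3 array types, from -0.55 to -0.092, with -0.30 ± 0.23 (SD, 3 probe sets). Ebp, the sterol isomerase, had 547.6 against 435.1, a ratio of 0.33. Sc5d, the desaturase, had -0.31 and -0.10 on SubA and 0.70 on SubB, a value of 0.095 ± 0.53 (SD, 3 probe sets). Dhcr7, the final reductase to cholesterol, had 373.3 against 292.4 on SubA and 886.8 against 1474.8 on SubC, a value of -0.19 ± 0.77 (SD, 2 probe sets). For Sc5d and Dhcr7 the direction is not settled.

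A split at squalene epoxide, made after these values were seen, put 7 of 8 genes up to Sqle above 0 (median 0.29) and 3 of 8 later genes (median -0.062). Of all measured genes 49.7% lay above 0. At the level of probe sets the result also moved with the array type. On SubA 15 of 20 sterol synthesis probe sets lay above 0 (75%, median 0.18), against 52.5% of all SubA probe sets. On SubB 4 of 7 did (median 0.021), and on SubC 2 of 6 (median -0.36), against 48.9% and 48.5% of all probe sets. The 6 SubC probe sets belong to Pmvk, Mvd, Cyp51, Nsdhl, Hsd17b7 and Dhcr7, and the part of the array type in these values was not tested.

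**Figure D2:**
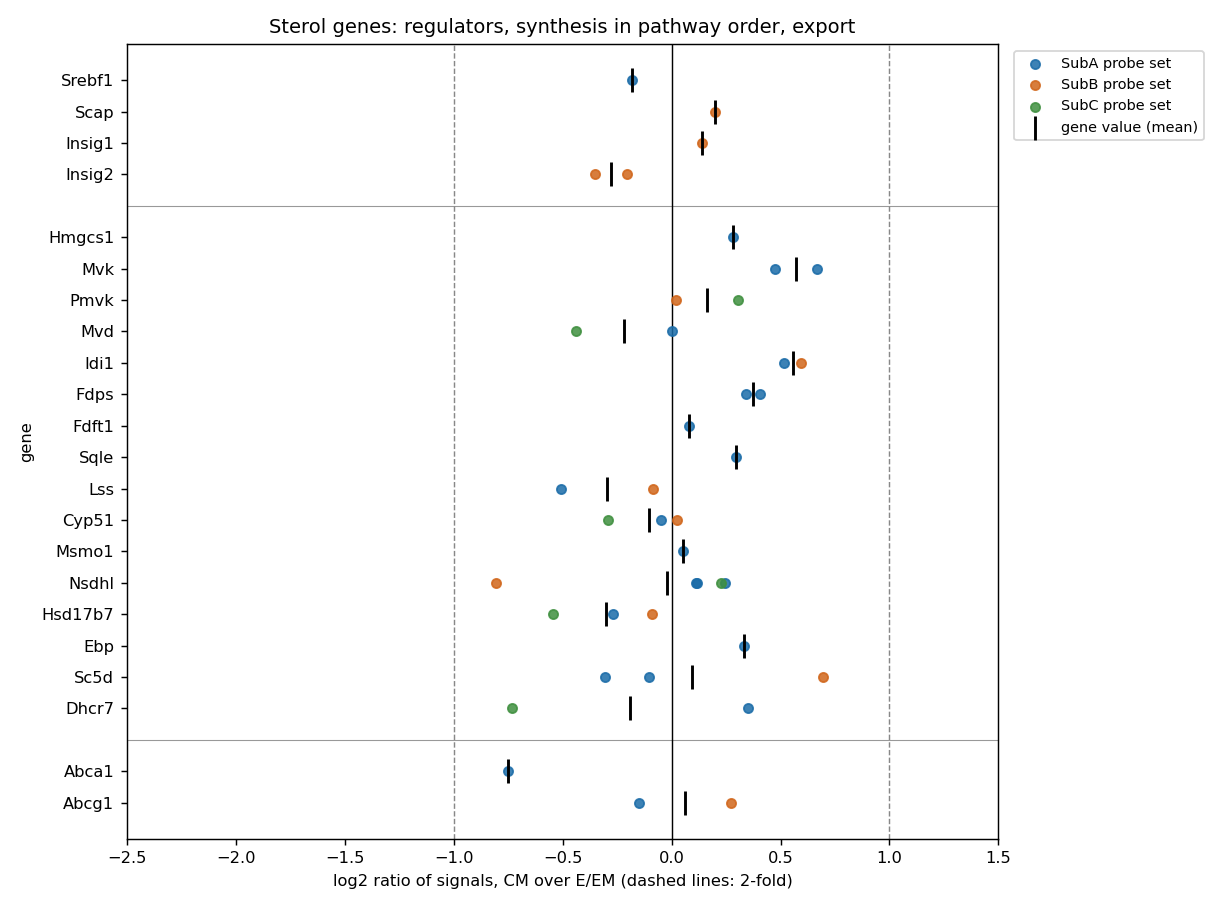
Log2 ratio, CM signal over E/EM signal (horizontal axis), for the regulators, the sterol synthesis genes in pathway order and the export genes (vertical axis). Points are probe sets coloured by array type, black bars are gene values (means), and dashed lines mark 2-fold; no gene value reaches 2-fold, Mvk and Idi1 are the highest at 0.57 and 0.56, and Abca1 is the lowest at -0.75.

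Sterol export genes were measured for 2 of 4 members of the storage and export group. Abca1, the transporter that hands cholesterol to lipid-poor lipoproteins and a target of the liver X receptors, was weak in both kinds of cells. One of its SubA probe sets had 41.1 in CM and 69.1 in E/EM cells, a ratio of -0.75, and the CM signal was only 1.31 times the floor. The other had 26.2 against 135.7, under the floor in CM cells, at least 4.34-fold lower there. Both probe sets thus placed Abca1 lower in CM cells, and its value was -1.56 with the floor halved and -0.55, short of 1.5-fold, after quantile normalization. With the floor doubled or set at the 60th percentile Abca1 had no value. Abcg1, a related transporter, had 862.9 against 956.7 on SubA and 627.4 against 519.2 on SubB, a value of 0.062 ± 0.30 (SD, 2 probe sets) with no settled direction.

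The fatty acid genes had different medians by step, but the ranges of the steps overlapped. The medians were 0.27 for synthesis, -0.58 for desaturation and elongation, and 0.093 for activation and esterification. The values ran from 0.063 to 0.39, from -1.53 to 0.52 and from -1.61 to 0.36. Of 17 genes 15 were measured, 7 above 0 and 8 below, with a median of -0.11. At least 1.5-fold lower in CM cells were 4 (Scd1, Fads2, Elovl6 and Dgat1), against 13.9% of all measured genes, and at least 2-fold lower were 2 (Scd1 and Dgat1), against 5.61%. At least 1.5-fold higher were 0, against 10.1%. The difference of the sterol synthesis and fatty acid medians was 0.20, with no replicate arrays to set it against.

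The gene values of the 3 enzymes that make palmitate lay above 0, though not firmly for Fasn. Acly, which cleaves citrate to cytosolic acetyl-CoA, had 6811.3 in CM and 5213.2 in E/EM cells, a ratio of 0.39. Acaca, acetyl-CoA carboxylase, had 1513.8 and 1449.4, a ratio of 0.063. Fasn, fatty acid synthase, had 2226.4 against 2358.4 on SubA and 362.8 against 310.9 and 234.5 against 148.8 on SubB, a value of 0.27 ± 0.37 (SD, 3 probe sets). The 2 array types disagreed in sign for Fasn, and its brightest probe set, on SubA, had -0.083. The weakest Fasn signal, on SubB, was 1.69 times the floor, and its direction is not settled.

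Desaturase and elongase genes mostly had lower signals in CM cells. These enzymes add double bonds to palmitate and stearate or to dietary polyunsaturated fatty acids, and lengthen the chains. Of 7 genes, all measured, 6 lay below 0, where 50.3% of all measured genes did, with a median of -0.58, and 3 of the 7 were at least 1.5-fold lower, against 13.9% of all measured genes. Above 0 lay 1 of their 13 measured probe sets, against 50.2% of all measured probe sets. Scd1, the delta-9 desaturase that makes oleate, had 828 against 2236.3 and 629.4 against 1947.6 on SubA, a value of -1.53 ± 0.14 (SD, 2 probe sets), 2.89-fold lower in CM cells. Another Scd1 probe set was weak and opposite, with 74.6 against 16.1, at least 2.38-fold higher in CM cells. With the floor halved that probe set enters the mean, which is then -0.28. Scd2, a paralogue with the same activity, had 7239.8 against 9823.2 and 1383.4 against 2292.3, a value of -0.58 ± 0.20 (SD, 2 probe sets), just under 1.5-fold. The 2 desaturases are similar in sequence, and cross-hybridisation between their probe sets was not measured, so each value is uncertain for its own gene.

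Fads2, the delta-6 desaturase of polyunsaturated fatty acids, had 1787.2 against 2695.6 and 688.9 against 1383.6 on SubB and 9364.5 against 12234.1 on SubC. All 3 probe sets lay lower in CM cells, with a value of -0.66 ± 0.32 (SD, 3 probe sets), and the brightest relative to its floor had -0.39. Fads1, the delta-5 desaturase, had 501.2 and 542.5, a ratio of -0.11. Elovl6, which lengthens palmitate to stearate, the substrate of the delta-9 desaturases, had 608.9 against 1103.2 and 260.3 against 526.4, a value of -0.94 ± 0.11 (SD, 2 probe sets), 1.91-fold lower. Elovl1, an elongase of very long chains, had -0.21 ± 0.10 (SD, 2 probe sets, 1 on SubA and 1 on SubB). Elovl5, which lengthens polyunsaturated chains, was the exception, with 6261 in CM and 4364.9 in E/EM cells, a ratio of 0.52.

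The promoters of Elovl6 and Fads2 are shown because these were the desaturase and elongase genes at least 1.5-fold lower in CM cells for which a window was given.
Elovl6 promoter, chr3:129532136-129532385, plus strand: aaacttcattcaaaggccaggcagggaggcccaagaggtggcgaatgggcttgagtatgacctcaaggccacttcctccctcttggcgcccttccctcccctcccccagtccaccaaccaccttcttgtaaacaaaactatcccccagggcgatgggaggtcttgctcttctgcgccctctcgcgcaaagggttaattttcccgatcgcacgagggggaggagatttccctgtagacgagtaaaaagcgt
Fads2 promoter, chr19:10101504-10101753, minus strand: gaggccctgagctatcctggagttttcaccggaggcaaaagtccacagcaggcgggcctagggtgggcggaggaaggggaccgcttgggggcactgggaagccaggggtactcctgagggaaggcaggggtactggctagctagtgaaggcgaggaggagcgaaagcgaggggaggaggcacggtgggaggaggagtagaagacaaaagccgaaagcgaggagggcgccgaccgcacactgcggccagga
Neither 250-base window held TCACNCCAC or ATTGG, so no letters are in capitals. Other genes lower in CM cells by every measured probe set varied. ATTGG had 3 matches for Hsd17b7, 3 in 1 of the 3 windows of Insig2 and 1 in 1 of the 2 windows of Elovl1. Lss held 1 match, though a bound from another of its probe sets went the other way. Srebf1 held ATTGG in some but not all of its windows, and the window of Abca1 held none. Among regulators and fatty acid genes above 0, no window of Acly, Acaca or Scap held it, while windows of Insig1, Fasn, Elovl5, Acsl3, Acsl5 and Gpam did. Over the 15 windows of 12 fatty acid genes, ATTGG was found in 7 (46.7%), GGGCGG in 8 (53.3%) and TCACNCCAC in 1, of Acsl1, which has no value here. That a motif is not in these letters leaves the rest of the gene unread.

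Among activation and esterification genes, Dgat1 was past 1.5-fold and the other 4 measured were not. Dgat1, which joins the last acyl chain to make triacylglycerol, had 285.1 in CM and 1331.5 in E/EM cells on SubA and 2227 against 4436.3 on SubC. Both array types placed it lower in CM cells, by 4.67-fold and 1.99-fold, a value of -1.61 ± 0.87 (SD, 2 probe sets), and a weak further probe set had 16.9 and 18.2, under the floor. With the floor halved, which adds that probe set, Dgat1 had -1.11. Gpam, the first acyltransferase of the same path, had 250.2 and 234.5, a ratio of 0.093. Among the acyl-CoA synthetases, which activate free fatty acids, Acsl5 had 2708.3 against 2109.7, a ratio of 0.36. Acsl3 had 221.6 against 190.9, a ratio of 0.22, and a second SubB probe set with 72.7 against 148, at least 1.68-fold lower. Acsl4 had ratios of 0.021 and -0.57 on SubA and 0.11 on SubB, a value of -0.15 ± 0.37 (SD, 3 probe sets). The probe sets of Acsl3 and Acsl4 give no settled direction.

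**Figure D3:**
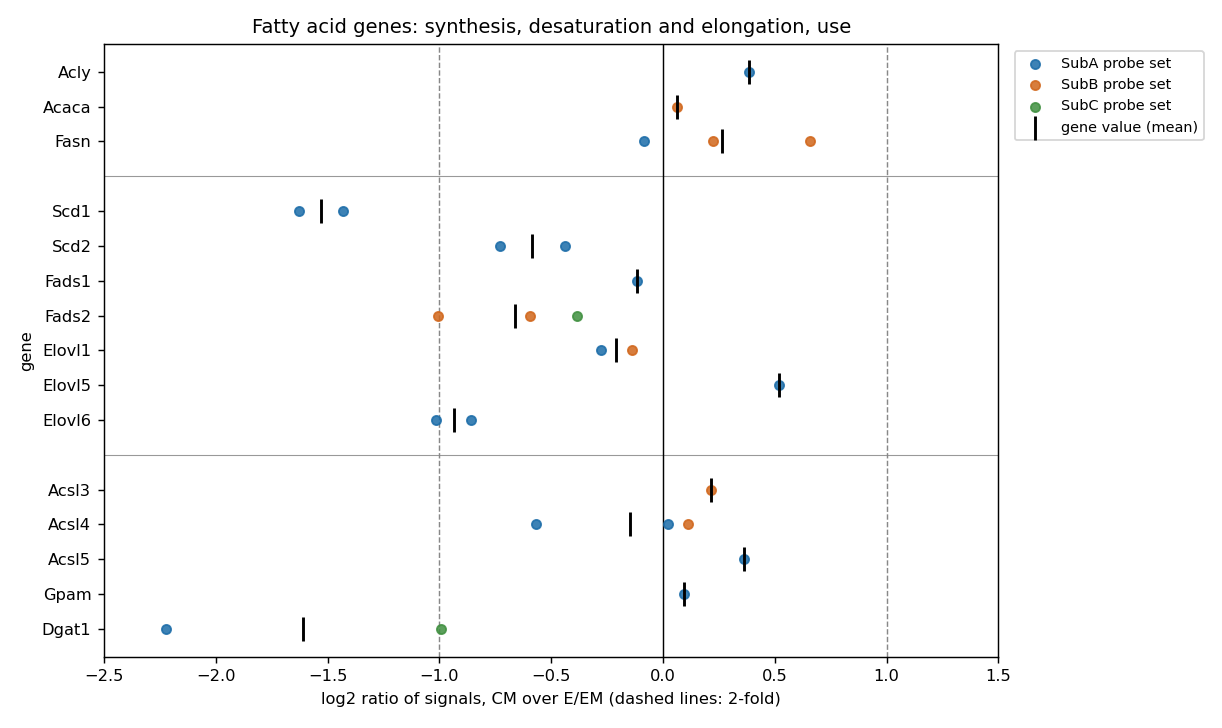
Log2 ratio, CM signal over E/EM signal (horizontal axis), for genes of fatty acid synthesis, desaturation and elongation, and activation and esterification (vertical axis). Points are probe sets coloured by array type, black bars are gene values (means), and dashed lines mark 2-fold; Scd1 at -1.53 and Dgat1 at -1.61 lie past it, Elovl6 at -0.94 lies close to it, and Acly, Acaca, Fasn and Elovl5 lie above 0.

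By array type, 5 of 16 SubA probe sets of fatty acid genes lay above 0 (median -0.36), against 52.5% of all measured SubA probe sets. On SubB 5 of 8 did (median 0.087), against 48.9%. The 2 measured on SubC, for Dgat1 and Fads2, both lay below 0, where 48.5% of all measured SubC probe sets lay above it. Desaturase and elongase probe sets had medians of -0.73 on SubA and -0.59 on SubB, and the 1 on SubC, for Fads2, had -0.39.

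Other genes of these pathways, from a list that is not part of the 43, were also spread around 0. Of 18 further sterol genes 13 were measured, with a median of -0.00056, 1 at least 1.5-fold higher and 1 lower, where 10.1% and 13.9% of all measured genes were. Npc2, a carrier of cholesterol in lysosomes, had 0.87 ± 0.82 (SD, 2 probe sets), but 0.29 without its SubC probe set. Cyp27a1, a sterol 27-hydroxylase, had 496.2 in CM and 822.9 in E/EM cells, a ratio of -0.73. Of 24 further fatty acid genes 15 were measured, with a median of -0.046, 1 at least 1.5-fold higher and 3 lower, beside the same 10.1% and 13.9%.

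Plin2, which coats lipid droplets, had 143.4 in CM and 621.1 in E/EM cells on SubA, a ratio of -2.11. A SubC probe set had 250 against 102.5, above the floor in CM cells alone and so opposite, and Plin2 had -0.41 with the floor halved. Acacb, the carboxylase isoform at mitochondria, had 185.3 against 391.7, a ratio of -1.08, and Lpin1, the phosphatidate phosphatase before the Dgat1 step, had -0.75 ± 0.17 (SD, 2 probe sets). Acss2, which makes acetyl-CoA from acetate, had 694.6 against 373.8, a ratio of 0.89, or 0.55 when a probe set shared with other symbols is added. Of genes with bounds alone, Pparg was at least 4.68-fold, Me1 at least 2.60-fold and Thrsp at least 1.88-fold lower in CM cells, and Acsl6 was at least 1.28-fold higher.

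The sterol synthesis median lay between 0.072 and 0.25 and the fatty acid median between -0.19 and -0.083 under 10 alternative ways of processing, with the sterol median the higher in each. None of the alternatives left out SubA. At the level of probe sets the order was the other way on SubB, with medians of 0.021 for sterol synthesis and 0.087 for fatty acid genes. The sterol median was the higher on SubA (0.18 against -0.36) and on SubC (-0.36 against -0.69, with 2 fatty acid probe sets).

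**Figure D4:**
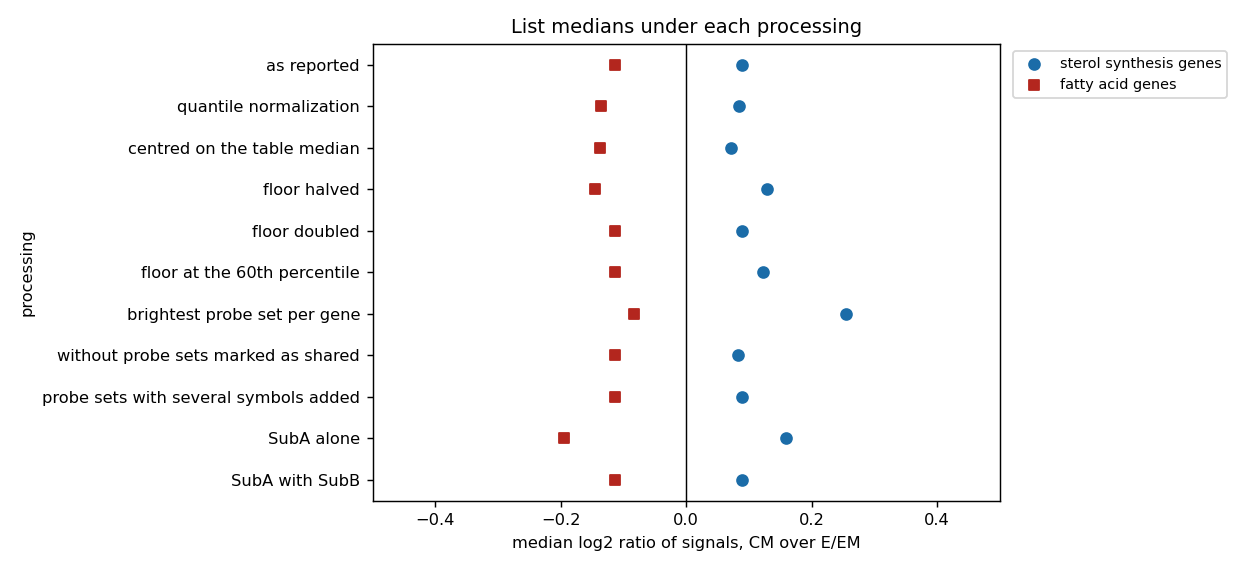
Median log2 ratio, CM signal over E/EM signal (horizontal axis), of the sterol synthesis genes (circles) and the fatty acid genes (squares), as reported and under each of 10 alternative ways of processing (vertical axis). The sterol median stays above 0, from 0.072 to 0.25, and the fatty acid median below 0, from -0.19 to -0.083. All of these ways of processing keep SubA. The way labelled as without shared probe sets leaves out all marked names, whether or not their letter stands for sharing.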

How the data were processed

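CM and E/EM cells gave total RNA for 3 array types, 1 array each, per the labels. The deposited tables, 1 per array type, hold linear intensities of probe sets; how the authors made them: not given in the sources used here. Each array's mean without its lowest and highest 2% lay between 499.3 and 499.9, so the arrays share a scale and values were used as deposited. With 1 array per group, the number of arrays sets the precision.

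Symbols are those of GEO's platform annotation, and 38 of 38 member symbols matched a RefSeq table of GRCm38.p6 by gene identifier, with 0 changed. The floor was the higher of a table's 2 arrays' 90th percentiles over 15 bacterial poly-A control probe sets. A probe set above it on 1 array only gives a bound, its signal over the floor. Ratios were computed in Python 3.11.15 with pandas 2.3.3 and tested on simulated data. Genes named in full are all members, and other pathway genes past 1.5-fold. The members and lists were chosen with earlier results of these data known. Alternatives covered normalization, centring, the floor, probe set choice and array types. One of them left out probe sets with marked names, those with f, g, i, r or s before the ending _at.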

Additional observations from a re-analysis of the deposited data

How the results depend on the processing

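No paired analysis was possible because each group holds 1 array and no test was run. Of 37 measured members, 31 moved by no more than 1.5-fold under any of the 10 alternatives that gave them a value. The other 6 were Scd1 (-0.28), Abca1 (-1.56), Msmo1 (0.75) and Acsl3 (-0.41) with the floor halved, and Sc5d and Dgat1. Sc5d had 0.70 without probe sets of marked names, and Dgat1 had -2.22 with SubC left out or with the brightest probe set. For genes with 1 probe set the choice of probe sets cannot move the value. Under at least 1 alternative 9 changed sign: Mvd, Lss, Nsdhl, Sc5d, Dhcr7, Abcg1, Fasn, Acsl3 and Acsl4, all within 1.5-fold as reported. With the brightest probe set per gene, the sterol synthesis median was 0.25 and its difference from the fatty acid median 0.34. On SubA alone that difference was 0.35 and the regulator median, then Srebf1 alone, -0.18. The export median was -0.75 with the floor halved and 0.062 with it doubled or at the 60th percentile, where Abca1 drops out. Sterol synthesis genes at least 1.5-fold higher numbered 2 after quantile normalization, 1 with the floor halved and 1 without probe sets of marked names. With the floor halved 1 fatty acid gene and 1 export gene were at least 2-fold lower. Export genes at least 1.5-fold lower numbered 0 after quantile normalization, with the floor doubled and at the 60th percentile. Where no cause is shown by the setting itself, the cause was not tested. SubC, with the highest floor, limits the members it measures.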
